A study of Mus musculus with 5 samples.

Results

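Chemokine ligands were examined in RNA sequenced from mouse bladder urothelium, the epithelial lining that seals the bladder against urine. The ligands were taken as every gene whose symbol is Ccl, Cxcl or Cx3cl followed by a number alone, which gave 33 of the 24970 genes in the count tables. Symbols with a letter suffix and older names, such as Ccl21a, Ccl27a, Pf4 and Xcl1, fall outside that rule. The knockouts were 3 mice of the genotype Krt5CreERT2;Ncstnflox/flox (KO 1 to KO 3), in which Cre recombinase is driven by the promoter of the basal cell keratin gene Krt5 and recombines floxed alleles of Ncstn. They were set against 2 wild types of strain C57Bl/6 (WT 1 and WT 2), and all 5 mice were 10 weeks old, with 1 library each. Ncstn encodes nicastrin, a subunit of the gamma-secretase complex that cleaves Notch receptors and other membrane proteins. The labels do not state how Cre was activated, and strain background, Cre and loss of Ncstn cannot be told apart in this design.

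Chemokines are small secreted proteins that guide leukocytes by binding G protein-coupled receptors, and they are classed as CC, CXC or CX3C by the spacing of their first cysteines. Some, such as Cxcl12 and Cxcl14, are made steadily by stroma or epithelium, while others, such as Ccl2 and Cxcl10, are induced by NF-kappaB or interferon signalling. In mucosal tissues the epithelium, resident macrophages, fibroblasts and vessels all contribute.

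Gene counts came to between 12608836 (KO 3) and 27188499 (KO 1) per library, so 10 counts stood for 0.376 to 0.779 CPM (counts per 1000000 gene counts, after TMM scaling). Ncstn was measured at 114, 117 and 123 CPM in KO 1 to KO 3, against 144 and 130 CPM in WT 1 and WT 2, and missed the threshold (edgeR adjusted p = 0.133). These counts span the gene and all cells taken, so they do not check the deletion. The tissue label was borne out by its markers, since 9 umbrella cell genes summed to 15880 to 17480 CPM in KO and 10470 to 11630 CPM in WT libraries. Fibroblast genes were also present, with 14 of them summing to 9455 to 11240 CPM in KO and 15780 to 17880 CPM in WT libraries, so the libraries hold stroma as well as epithelium. Of the marker genes tested, 6 umbrella cell genes were higher and 0 lower, 3 of 8 basal cell genes were higher and 1 lower, 2 of 13 endothelial genes were higher and 5 lower, and 1 of 10 smooth muscle genes was lower. The called shares were 66.7%, 50%, 53.8% and 10% in that order, against 19.7% of all tested genes. Without WT 1, the umbrella cell genes called higher numbered 2, basal cell genes 2 higher and 0 lower, endothelial genes 1 higher and 3 lower, and smooth muscle genes 0 lower. The umbrella cell genes called higher numbered 3 without KO 2 and 4 without KO 1, and no smooth muscle gene was lower without KO 1 or without WT 2. In such bulk tissue, fewer cells of a type and less RNA per cell cannot be told apart.

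Promoter windows of 4 ligands are shown because Cxcl14 and Cxcl12 are the ligands with the most counts and changed in opposite directions, and because Ccl6 and Ccl9 are neighbouring genes that both rose. Each window runs from 250 bases before to 50 bases after the RefSeq start site (GRCm38.p6), 5′ to 3′ on the gene's strand. Capitals mark matches, on either strand, to the kappaB motif (GGG and TTTCC with 2 bases of any kind between them), the interferon response element (GAAA and GAAA with 2 bases between them) or the RBPJ motif TGGGAA, RBPJ being the DNA-binding partner of Notch.
Cxcl14, chr13:56296502-56296801, minus strand: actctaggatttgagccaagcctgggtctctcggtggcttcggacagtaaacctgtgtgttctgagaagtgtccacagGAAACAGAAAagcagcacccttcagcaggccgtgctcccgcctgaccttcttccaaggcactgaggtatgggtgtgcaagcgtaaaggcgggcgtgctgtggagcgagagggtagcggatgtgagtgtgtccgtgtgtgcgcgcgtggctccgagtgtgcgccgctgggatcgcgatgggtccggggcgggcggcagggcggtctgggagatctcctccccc
Cxcl12, chr6:117168285-117168584, plus strand: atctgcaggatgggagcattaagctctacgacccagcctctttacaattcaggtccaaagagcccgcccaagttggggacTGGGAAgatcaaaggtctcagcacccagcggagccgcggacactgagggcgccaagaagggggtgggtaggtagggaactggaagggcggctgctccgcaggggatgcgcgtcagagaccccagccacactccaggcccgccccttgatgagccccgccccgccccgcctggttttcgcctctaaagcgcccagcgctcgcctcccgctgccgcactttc
Ccl6, chr11:83593038-83593337, minus strand: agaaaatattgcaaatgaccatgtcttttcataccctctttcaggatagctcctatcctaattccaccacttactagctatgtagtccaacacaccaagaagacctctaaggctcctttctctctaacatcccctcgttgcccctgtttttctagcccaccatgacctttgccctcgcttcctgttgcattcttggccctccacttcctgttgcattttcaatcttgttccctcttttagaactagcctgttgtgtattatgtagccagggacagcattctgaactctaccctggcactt
Ccl9, chr11:83578587-83578886, minus strand: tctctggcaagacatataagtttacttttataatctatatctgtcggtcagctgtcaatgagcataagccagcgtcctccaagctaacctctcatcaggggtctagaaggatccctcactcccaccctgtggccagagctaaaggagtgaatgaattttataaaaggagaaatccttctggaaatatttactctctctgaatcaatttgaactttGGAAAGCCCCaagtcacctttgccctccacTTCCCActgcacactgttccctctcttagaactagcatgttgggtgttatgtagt

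The Cxcl14 window held 1 interferon response element match starting at position -172 from the start site, and the Cxcl12 window held 1 RBPJ match at -170. The Ccl9 window held 1 kappaB match at -35 and 1 RBPJ match at -5 that do not overlap, and the Ccl6 window held none of the 3 motifs. RefSeq windows were at hand for 13 of the 18 detected ligands, 14 windows in all since Ccl25 has a pair of start sites. Of these 14 windows, 1 held the kappaB motif (Ccl9), 2 the interferon response element (Cxcl10 and Cxcl14) and 5 the RBPJ motif (Ccl8, Ccl9, Cx3cl1, Cxcl12 and Cxcl13). Among all 32851 promoter windows of this length, 1.63% held the kappaB motif, 3.44% the interferon response element and 25.6% the RBPJ motif. A match is a description of the letters and not a binding site.

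Of the 33 ligands, 18 were detected, meaning 10 or more counts in at least 2 libraries. These were 11 of 19 CC ligands, 6 of 13 CXC ligands and Cx3cl1, the only CX3C ligand. The filter applied before the test, about 0.593 CPM in at least 2 libraries, was passed by 17 ligands, all of them detected, and Cxcl10 was detected but not tested. Among the 17, 7 were higher and 3 lower in KO mice at an adjusted p under 0.05 (edgeR quasi-likelihood test, Benjamini-Hochberg adjustment over 14779 genes) and 7 did not pass. Of all tested genes, 9.64% were higher and 10% lower by the same rule, 19.7% in all. The ligands that rose were Cxcl14, Ccl6, Ccl9, Ccl8, Ccl25, Ccl28 and Cxcl13, and those that fell were Cxcl12, Cx3cl1 and Cxcl15. The median log2 fold change was 1.11 over the 17 ligands, 3 of which passed the filter in KO libraries alone, and 0.01 over all tested genes. Without WT 1, with 20 ligands tested, the ligand median was 0.64.

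Of the 17, 4 passed the filter through 1 genotype alone and so could only enter the test by differing. These were Ccl2, Ccl7 and Cxcl13 through KO libraries and Cxcl15 through WT libraries. Of the other 13 ligands, 6 were higher, 2 were lower and 5 did not pass. Among these 13, Ccl28 passed the filter in 3 KO libraries and 1 WT library, and Ccl22 in 1 KO library and 2 WT libraries. Each of them thus reached the 2 libraries needed within 1 genotype, so the 13 are not all free of this limit. Most of the calls were lost without WT 1, where a single WT library remains and fewer genes of the whole table were called as well. The log2 fold change without WT 1 was 1.76 for Ccl6, 1.34 for Ccl9 and 0.685 for Ccl8. In the full fit it was 1.76, 1.45 and 1.18. Without WT 2, which also leaves a single WT library, Ccl25, Cx3cl1 and Cxcl13 lost their calls. Without KO 3, 7 ligands were higher and 6 lower. Over all genes 1743 were higher and 2246 lower without KO 3, against 1424 and 1483 in the full fit.

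**Figure D1:**
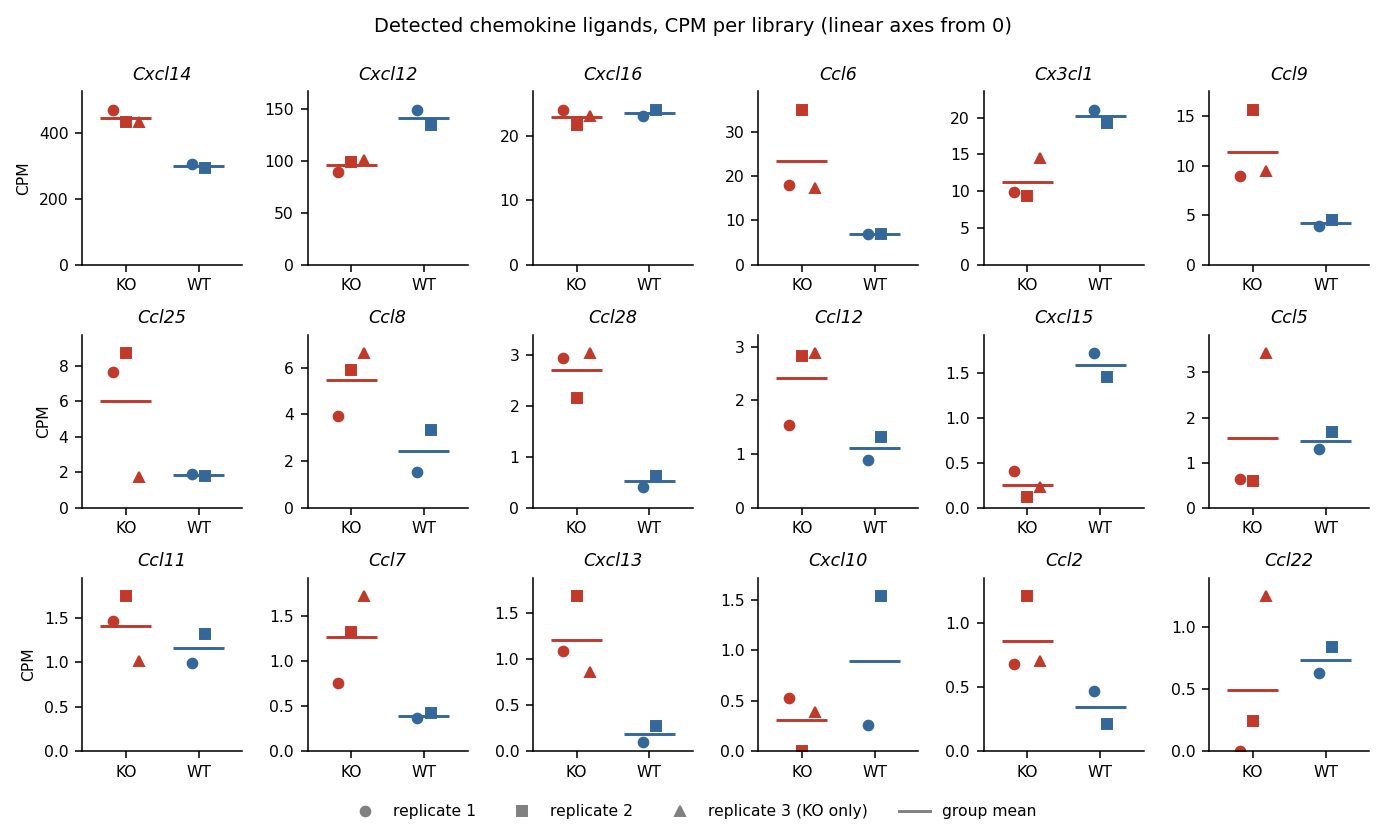
CPM of the 18 detected chemokine ligands in each library, KO at left and WT at right in each panel, with lines at the group means and a linear axis from 0 per panel. Cxcl14 lies at 434.5 to 470 CPM in KO libraries and at 294.2 to 304.3 CPM in WT libraries, while Ccl25, Ccl5 and Ccl22 have 1 KO library apart from the other KO libraries.

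**Figure D2:**
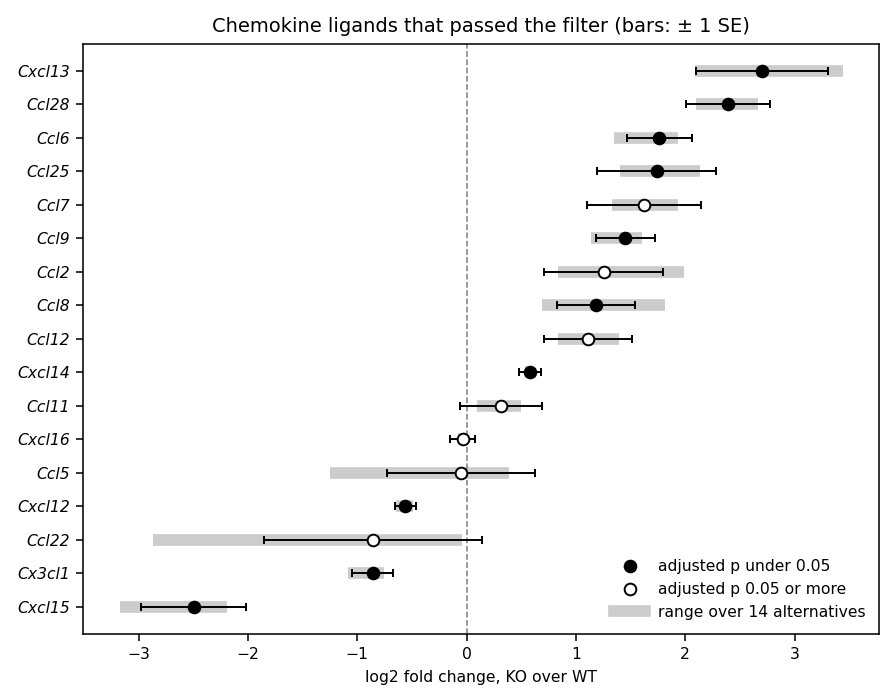
Log2 fold change of KO over WT for the 17 tested ligands with bars of 1 SE, filled where the adjusted p was under 0.05; grey bands span the values under 14 alternative settings. Cxcl13 (2.70) and Ccl28 (2.39) lie highest and Cxcl15 (-2.50) lowest, and the bands of Ccl5 cross 0.

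Cxcl14, a ligand made constitutively by many epithelia, was the most abundant chemokine transcript in every library. It was at 470, 435 and 435 CPM in KO 1 to KO 3, against 304 and 294 CPM in WT 1 and WT 2. The groups did not overlap and the KO libraries lay close together. Cxcl14 rose 1.49-fold (log2 fold change 0.58 ± 0.10 SE, edgeR adjusted p = 0.00374), and the call held under all 14 alternatives (adjusted p 8.64e-08 to 0.0332). Per kilobase of exon, Cxcl14 averaged 244 CPM in KO and 164 CPM in WT libraries, far above the next ligand in either genotype.

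Cxcl12, made largely by stromal and vessel cells and bound by the receptors Cxcr4 and Ackr3, went the other way. It was at 89.7, 98.9 and 100 CPM in KO 1 to KO 3, against 149 and 135 CPM in WT 1 and WT 2, with no overlap. Cxcl12 was 1.47-fold lower in KO mice (log2 fold change -0.56 ± 0.10 SE, edgeR adjusted p = 0.00385). The call was lost without WT 1 (adjusted p = 0.0515, range over alternatives 2.16e-05 to 0.0515). The fibroblast list moved in the same direction, with 12 of its 14 tested genes lower and 1 higher, 92.9% called against 19.7% of all tested genes. Without WT 1, 5 were lower, and without KO 1, 8 were. Lum, a matrix proteoglycan, was at 64.7, 54.9 and 50.4 CPM in KO and 171 and 172 CPM in WT libraries. The part of stromal content in the Cxcl12 difference was not tested.

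Cxcl14 and Cxcl12 together held 86.9%, 82.9% and 85.5% of the summed ligand CPM in KO 1, KO 2 and KO 3, and 87.1% and 85.6% in WT 1 and WT 2. Within that nearly constant share the balance differed between genotypes. Cxcl14 alone held 73%, 67.5% and 69.4% in KO libraries, against 58.5% and 58.8% in WT libraries. Cxcl12 held 13.9%, 15.4% and 16% in KO libraries, against 28.7% and 26.9% in WT libraries. All ligands summed to 644, 644 and 626 CPM in KO 1 to KO 3, against 521 and 501 CPM in WT 1 and WT 2.

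Compared per kilobase of exon, the order below Cxcl14 differed between the genotypes. Lengths were the merged exons of every GENCODE vM21 transcript of a gene. The annotation used for counting is not known, so the order of ligands within a genotype rests on that choice. In KO libraries Ccl6 averaged 13.1 CPM per kilobase (9.67 to 19.5), Cxcl12 11.8 (11 to 12.3) and Ccl8 10.7 (7.66 to 13), and these 3 overlapped. Cxcl16 at 7.6 (7.17 to 7.96) overlapped Ccl8, and Ccl12 followed at 4.5. In WT libraries Cxcl12 averaged 17.4 CPM per kilobase (16.5 to 18.2) and Cxcl16 7.8, while Cx3cl1 at 5.13 (4.91 to 5.36) and Ccl8 at 4.76 (2.96 to 6.55) overlapped. Ccl6 lay at 3.84 in both WT libraries.

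Cx3cl1 and Cxcl16 are the chemokines made as membrane-anchored proteins that can be shed. Cx3cl1, whose receptor is Cx3cr1 on monocytes and macrophages, was at 9.90, 9.32 and 14.6 CPM in KO 1 to KO 3, against 21.1 and 19.3 CPM in WT 1 and WT 2. All KO libraries lay below both WT libraries, with KO 3 nearest to them. It was 1.82-fold lower in KO mice (log2 fold change -0.86 ± 0.19 SE, edgeR adjusted p = 0.011), and the call was lost without WT 1 (adjusted p = 0.117) and without WT 2 (0.0567), within a range of 2.10e-09 to 0.117 over the alternatives.

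Cxcl16, the ligand of Cxcr6, was at 24.1, 21.7 and 23.1 CPM in KO 1 to KO 3, against 23.1 and 24.1 CPM in WT 1 and WT 2. The genotypes overlapped and the log2 fold change was -0.04 ± 0.11 SE (edgeR adjusted p = 0.851). Of the exon bases of Cxcl16, 552 overlap Zmynd15 on the opposite strand, and no label states whether the counting used strand. Zmynd15 was at 3.50, 3.13 and 4.05 CPM in KO libraries and 5.48 and 5.93 CPM in WT libraries.

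Ccl6 and Ccl9, CC ligands of rodents that bind Ccr1 in the mouse and are known from macrophages and other myeloid cells, had the clearest rise among the CC ligands with more counts. Ccl6 was at 18, 35 and 17.4 CPM in KO 1 to KO 3, against 6.89 and 6.90 CPM in WT 1 and WT 2. Ccl9 was at 8.96, 15.6 and 9.50 CPM in KO 1 to KO 3, against 3.87 and 4.46 CPM in WT 1 and WT 2. For both genes KO 2 was the highest library and no KO library overlapped a WT library. Ccl6 rose 3.40-fold (log2 fold change 1.76 ± 0.30 SE, edgeR adjusted p = 0.00354) and Ccl9 rose 2.73-fold (1.45 ± 0.27 SE, edgeR adjusted p = 0.00549). Both calls were lost without WT 1 alone among the alternatives (log2 fold change 1.76 for Ccl6 and 1.34 for Ccl9). Their lowest edgeR adjusted p (9.81e-26 and 9.28e-12) came from a fit with the replicate number as a block. No label pairs the animals in this way.

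Macrophage and monocyte markers were read beside these genes. Of 15 tested, 2 were higher, 1 was lower and 12 did not pass. The called share was 20%, close to the 19.7% of all tested genes. Without KO 1, 5 of 14 were higher and 1 lower. Without a filter on low counts 5 were higher and 2 lower, and 1 was higher and 0 lower without WT 1 or without WT 2. Their sum was 299.5, 436 and 433 CPM in KO 1 to KO 3, against 378 and 405 CPM in WT 1 and WT 2. Cd163, a scavenger receptor of tissue macrophages, was at 14.7, 32.4 and 18.5 CPM in KO libraries and 8.98 and 7.81 CPM in WT libraries (edgeR adjusted p = 0.0120). Cd14, the lipopolysaccharide co-receptor, rose as well (log2 fold change 0.82, edgeR adjusted p = 0.00183), while the lysozyme gene Lyz2 fell by 0.82 on the log2 scale (edgeR adjusted p = 0.0272). The calls of Cd163 and Lyz2 were lost without WT 1 (adjusted p = 0.101 and 0.102) and without WT 2 (0.0984 and 0.162), and that of Lyz2 also in DESeq2 (0.103) and a robust edgeR fit (0.0992). Over the alternatives the adjusted p ran over 1.81e-14 to 0.101 for Cd163 and 3.83e-16 to 0.162 for Lyz2. Adgre1, which encodes F4/80, had a log2 fold change of -0.68 and missed the threshold (edgeR adjusted p = 0.0739), and was lower without KO 3 (adjusted p = 0.0135, range 8.50e-05 to 0.351). The complement genes C1qa, C1qb and C1qc of tissue macrophages had log2 fold changes of 0.41, 0.35 and 0.47 and missed it too (edgeR adjusted p = 0.0807, 0.118 and 0.13). Without KO 1 all 3 were higher (adjusted p = 0.0291, 0.0455 and 0.025), within ranges reaching 0.386, 0.477 and 0.599. Every KO library lay above both WT libraries for C1qa and C1qb and below both for Adgre1, while C1qc overlapped. Over all tested genes, 25.9% lay above and 25.1% below in this sense.

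The monocyte-attracting ligands Ccl2, Ccl7, Ccl8 and Ccl12 lie together with Ccl11 on chromosome 11 (GENCODE vM21 on GRCm38), from 82035571 at the start of Ccl2 to 82116799 at the end of Ccl8. Ccl8, which binds Ccr8 in the mouse, was at 3.92, 5.89 and 6.62 CPM in KO 1 to KO 3, against 1.52 and 3.35 CPM in WT 1 and WT 2. It rose 2.27-fold without overlap (log2 fold change 1.18 ± 0.36 SE, edgeR adjusted p = 0.0441). That call was lost without WT 1 (adjusted p = 0.35), without KO 2 (0.0982) and under upper-quartile scaling (0.0525), within a range of 0.000892 to 0.35.

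Ccl12, Ccl7 and Ccl2 are ligands of Ccr2, and none of them passed the test. Their KO libraries all lay above both WT libraries. Ccl7 and Ccl2 passed the filter through KO libraries alone, so they could enter the test only by differing in this way. Ccl12 was at 1.54, 2.83 and 2.88 CPM in KO 1 to KO 3, against 0.888 and 1.32 CPM in WT 1 and WT 2 (log2 fold change 1.11 ± 0.40 SE, edgeR adjusted p = 0.0786). Ccl7 was at 0.753, 1.32 and 1.71 CPM in KO libraries and 0.366 and 0.418 CPM in WT libraries (1.62 ± 0.52 SE, edgeR adjusted p = 0.0537). Ccl12 and Ccl7 were called without KO 1 (adjusted p = 0.0391 and 0.0283) and without a filter on low counts (0.0311 and 0.0285), and their adjusted p ran up to 0.433 and 0.308 over the alternatives. Ccl2, the main monocyte attractant, had 18, 20 and 9 counts in KO 1 to KO 3, against 9 and 3 counts in WT 1 and WT 2 (log2 fold change 1.25 ± 0.55 SE, edgeR adjusted p = 0.133).

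Ccl11, or eotaxin, which draws eosinophils through Ccr3, stood apart from these neighbours in that its genotypes overlapped. It was at 1.47, 1.74 and 1.01 CPM in KO 1 to KO 3, against 0.992 and 1.32 CPM in WT 1 and WT 2 (log2 fold change 0.31 ± 0.38 SE, edgeR adjusted p = 0.592). Counting ranges that do not overlap, 9 of the 17 tested ligands had every KO library above both WT libraries and 3 had every KO library below them. Ccl2, Ccl7 and Cxcl13 among the former and Cxcl15 among the latter passed the filter in a single genotype. Their separation thus goes with their entry into the test. Over all tested genes, 25.9% lay above and 25.1% below in this sense, 51% in all.

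Ccl5, Ccl9, Ccl6, Ccl3 and Ccl4 form another group on chromosome 11, between 83525778 and 83664683. Of these, Ccl9 and Ccl6 were called. Ccl5, which attracts T cells and monocytes, was at 0.640, 0.602 and 3.43 CPM in KO 1 to KO 3, against 1.31 and 1.67 CPM in WT 1 and WT 2. KO 3 was above and the other KO libraries below both WT libraries, and Ccl5 missed the threshold (log2 fold change -0.05 ± 0.68 SE, edgeR adjusted p = 0.966). Without KO 3 it was lower (log2 fold change -1.25, adjusted p = 0.0379, range over the alternatives 0.035 to 0.986). Ccl3, a macrophage inflammatory protein, had 1, 1 and 6 counts in KO libraries and 12 and 8 in WT libraries, and Ccl4 had 3, 9 and 2 counts in KO libraries and 6 and 4 in WT libraries, both under the detection threshold.

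Ccl22, made by dendritic cells and macrophages and bound by Ccr4, split in the same way as Ccl5. It had 0, 4 and 16 counts in KO 1 to KO 3, against 12 and 12 counts in WT 1 and WT 2, where 0 counts in KO 1 allow up to 3 counts, or 0.113 CPM. Ccl22 missed the threshold (log2 fold change -0.85 ± 1.00 SE, edgeR adjusted p = 0.58) and was lower without KO 3 (log2 fold change -2.86, adjusted p = 0.0228, range 0.00467 to 0.976). KO 3 was also the KO library with the highest summed CPM of dendritic cell and of T cell markers. The dendritic cell list summed to 47.5, 53.0 and 97.3 CPM in KO 1 to KO 3, against 119 and 136 CPM in WT 1 and WT 2. The T and NK cell list summed to 6.21, 7.34 and 13.8 CPM in KO libraries and 9.61 and 14.2 CPM in WT libraries. Their part in the levels of Ccl5 and Ccl22 was not tested.

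Of 10 dendritic cell markers tested, 4 were lower, 0 were higher and 6 did not pass, 40% called against 19.7% of all tested genes. The lectin gene Cd209a was at 0.264, 0.962 and 0.467 CPM in KO libraries and 3.08 and 2.86 CPM in WT libraries (edgeR adjusted p = 0.00541), and the cytokine receptor gene Flt3, the MHC class II gene H2-Ab1 and the integrin gene Itgax had log2 fold changes of -2.56, -1.80 and -2.21. These 4 calls were lost without WT 1 (adjusted p = 0.0822, 0.075, 0.0943 and 0.197). Without WT 2 the calls of Flt3, H2-Ab1 and Itgax were lost (0.128, 0.111 and 0.0909). Itgax was also lost without KO 1 (0.0695), and H2-Ab1 in DESeq2 (0.106) and a robust edgeR fit (0.2). Over the alternatives the adjusted p of H2-Ab1 ran over 3.64e-80 to 0.2. The lowest values of Cd209a, Flt3 and Itgax were 5.08e-07, 4.94e-09 and 4.52e-16. Of 7 T and NK cell genes tested in edgeR, 0 passed and 1 had an unadjusted p under 0.05, against 0 calls in DESeq2 and 1 lower in limma-voom. Of 1 B and plasma cell gene, 0 passed (1 unadjusted, 0 in both other tools). Of 5 mast cell, basophil and eosinophil genes, 0 passed (3 unadjusted, 1 higher in DESeq2 and 0 in limma-voom). Of 8 genes of all leukocytes, 2 were lower and 0 higher, 25% called against 19.7% of all tested genes. The lower genes numbered 0 without KO 1, without WT 1 or without WT 2, 1 without KO 2 and 4 without KO 3. Their sum was 56.9, 81.4 and 101.1 CPM in KO libraries and 100.9 and 111 CPM in WT libraries.

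Ccl25 and Ccl28 are known from mucosal epithelia, where Ccl25 acts through Ccr9 on gut-homing T cells and Ccl28 through Ccr10 and Ccr3 on plasma cells and T cells. Ccl28 was at 2.94, 2.17 and 3.04 CPM in KO 1 to KO 3, against 0.418 and 0.627 CPM in WT 1 and WT 2. Every KO library was above both WT libraries, and Ccl28 rose 5.24-fold (log2 fold change 2.39 ± 0.39 SE, edgeR adjusted p = 0.00272). The call was lost without WT 1 (adjusted p = 0.0651, range over the alternatives 3.08e-06 to 0.0651).

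Ccl25 was at 7.64, 8.72 and 1.71 CPM in KO 1 to KO 3, against 1.88 and 1.81 CPM in WT 1 and WT 2. KO 3 lay below both WT libraries, so the genotypes overlapped, and the call (3.33-fold higher, log2 fold change 1.74 ± 0.54 SE, edgeR adjusted p = 0.0485) sat at the threshold. It was lost in 7 of 14 alternatives, among them without WT 1 (adjusted p = 0.258), without WT 2 (0.196), without KO 1 (0.124), without KO 2 (0.119), in limma-voom (0.133), in a robust edgeR fit (0.122) and under upper-quartile scaling (0.054), within a range of 1.20e-13 to 0.258. KO 3 was also the lowest KO library for the basal keratin gene Krt14, at 86.4, 117 and 31.2 CPM in KO 1 to KO 3, against 1.78 and 3.14 CPM in WT 1 and WT 2. Ccl25 shares 204 exon bases with Elavl1 on the opposite strand. Elavl1, an RNA-binding protein gene, was at 85.1, 68.1 and 63.9 CPM in KO libraries and 65.1 and 56.3 CPM in WT libraries (edgeR adjusted p = 0.2), and the part of its reads in the Ccl25 counts was not tested.

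Cxcl13, the B cell attractant that binds Cxcr5, had 29, 28 and 11 counts in KO 1 to KO 3, against 2 and 4 counts in WT 1 and WT 2. It passed the filter through KO libraries alone, so it could enter the test only by differing. It rose (fitted log2 fold change 2.70 ± 0.60 SE, edgeR adjusted p = 0.0127), and the call was lost without WT 1 (adjusted p = 0.183) and without WT 2 (0.0552), within a range of 0.000148 to 0.183.

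Cxcl15, or lungkine, a mouse chemokine known from lung epithelium, ran the other way. It had 11, 2 and 3 counts in KO 1 to KO 3, against 33 and 21 counts in WT 1 and WT 2, which was 0.414, 0.120 and 0.234 CPM in KO libraries and 1.72 and 1.46 CPM in WT libraries. Cxcl15 passed the filter through WT libraries alone, so it could enter the test only by differing. The groups did not overlap, which that entry requires. Cxcl15 was lower in KO mice (fitted log2 fold change -2.50 ± 0.48 SE, edgeR adjusted p = 0.00662). The call was lost without WT 1 (adjusted p = 0.104, range 0.00016 to 0.104).

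The ligands Cxcl1, Cxcl2, Cxcl3 and Cxcl5, which draw neutrophils through Cxcr2, were near absent. Cxcl1 had 6, 3 and 5 counts in KO 1 to KO 3, against 1 and 1 in WT 1 and WT 2, and Cxcl2, Cxcl3 and Cxcl5 had 0 to 3 counts in every library. None of the 4 met the detection threshold. Of 10 neutrophil genes 6 were tested, 5 of them past the filter in KO libraries alone, so that they could enter the test only by differing. Among the 6, 4 were higher in KO mice, 0 were lower and 2 did not pass, 66.7% called against 19.7% of all tested genes. Csf3r, the receptor gene of a granulocyte growth factor, was among those not called, and no alternative of the 14 called it. S100a8, a calcium-binding protein gene of neutrophils that epithelia can also express, was at 9.67, 15.9 and 2.96 CPM in KO 1 to KO 3, against 0.0522 and 0.0697 CPM in WT 1 and WT 2 (edgeR adjusted p = 0.00138). Its partner S100a9 and the granulocyte genes Retnlg and Ngp were called too (edgeR adjusted p = 0.00477, 0.0147 and 0.0175), and were lost without WT 1 (0.0883, 0.164 and 0.139). Retnlg and Ngp were lost without WT 2 (0.0872 and 0.113). S100a9 and Retnlg were lost in limma-voom (0.0622 and 0.0683) and a robust edgeR fit (0.117 and 0.0681). Over the alternatives the lowest adjusted p was 3.23e-86 for S100a9, 1.4e-20 for Retnlg and 2.68e-12 for Ngp. The neutrophil list summed to 29.1, 62.8 and 9.73 CPM in KO libraries and 2.30 and 3.83 CPM in WT libraries, and Ly6g, a defining marker, had 5, 7 and 0 counts in KO libraries and 0 in both WT libraries.

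The interferon-induced ligands Cxcl9, Cxcl10 and Cxcl11, which draw T cells through Cxcr3, were low and uneven within both genotypes. Cxcl10 had 14, 0 and 5 counts in KO 1 to KO 3, against 5 and 22 counts in WT 1 and WT 2. Cxcl9 had 8, 0 and 6 counts in KO libraries and 0 and 16 in WT libraries, and Cxcl11 had 10, 0 and 1 counts in KO libraries and 2 and 1 in WT libraries. All 3 were at 0 in KO 2, which allows up to 0.18 CPM there, and the genotypes overlapped for each. Other interferon response genes were lower, with 18 of 30 lower, 1 higher and 11 not past the test. The called share was 63.3%, against 19.7% of all tested genes. Ifit3, an antiviral effector, was at 3.31, 2.41 and 6.07 CPM in KO libraries and 16.1 and 20.8 CPM in WT libraries (edgeR adjusted p = 0.000858), and Gbp3, Oasl2 and Rsad2 had log2 fold changes of -1.29, -1.24 and -1.95. Without WT 2 the lower genes of this list numbered 7 and without WT 1 they numbered 12.

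Just inside the detection threshold were Ccl2 and Cxcl10, and just outside it were Ccl3, Ccl24, Cxcl9 and Cxcl11, each with 10 or more counts in a single library. Ccl24, an eosinophil attractant, had 7, 11 and 4 counts in KO 1 to KO 3, against 3 and 1 in WT 1 and WT 2. Of the 15 undetected ligands, 12 had at least 1 count and none had more than 11 in a KO or 16 in a WT library. Ccl20, the ligand of Ccr6, the eotaxin-related Ccl26 and the mucosal ligand Cxcl17 had no count in any library, which allows up to 0.113 to 0.234 CPM per library. Ccl1, Ccl17 and Ccl19 had 0 to 8 counts. In a fit with no filter on low counts, 0 of the 13 otherwise untested ligands with counts was called, Ccl3 and Cxcl10 having an unadjusted p under 0.05 (0.0207 and 0.0443).

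**Figure D3:**
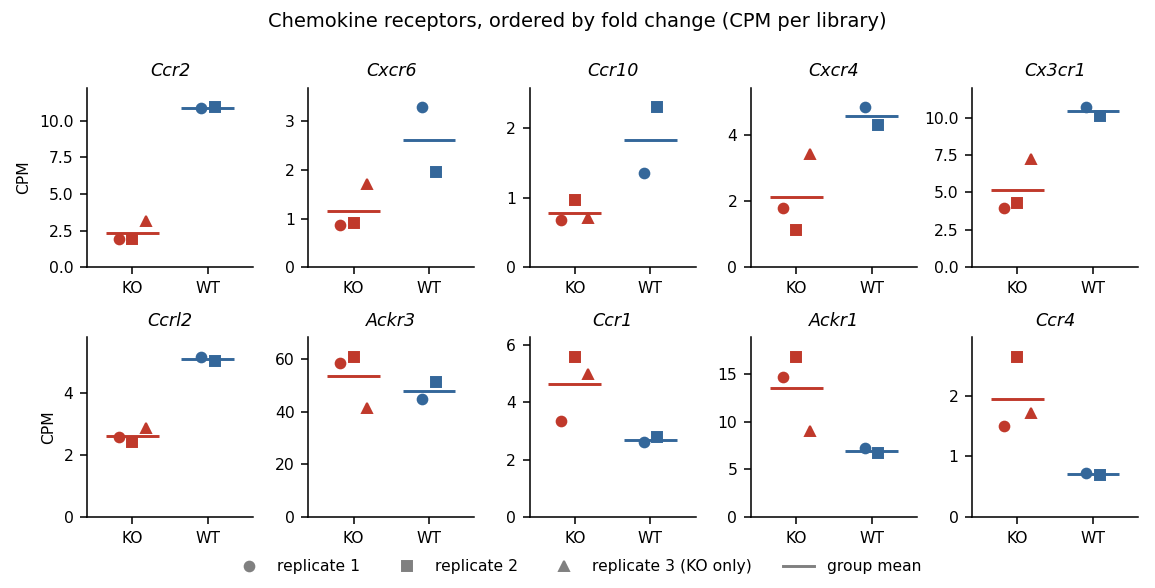
CPM in each library of the 10 tested chemokine and atypical chemokine receptor genes whose values are described here, KO at left and WT at right in each panel, ordered by log2 fold change from low to high, with lines at the group means. Ccr2 lies at 3.19 CPM or less in KO and 10.9 CPM in WT libraries, and Ccr4 and Ackr1 lie higher in every KO library than in both WT libraries.

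Receptor genes were set beside their ligands. Of 18 signalling chemokine receptors, 12 were tested, of which 2 were lower, 1 was higher and 9 did not pass, with a median log2 fold change of -0.64. The called share was 25%, against 19.7% of all tested genes. Of the 12, 1 passed the filter through KO libraries alone. Without KO 3, 6 of 10 were lower and 2 higher, with a median of -1.27. Ccr2, the receptor of monocytes for Ccl2, Ccl7 and Ccl12, was at 1.96, 1.93 and 3.19 CPM in KO 1 to KO 3, against 10.9 and 10.9 CPM in WT 1 and WT 2. Its KO libraries lay far below both WT libraries, with a log2 fold change of -2.25 ± 0.24 SE (edgeR adjusted p = 0.000324), and the call held under all 14 alternatives (adjusted p 5.21e-22 to 0.0116). Ccr2 was lower in the libraries in which its ligands Ccl2, Ccl7 and Ccl12 had higher, uncalled values. Of these ligands, Ccl2 and Ccl7 entered the test through KO libraries alone.

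Cx3cr1, the receptor of Cx3cl1, was at 3.95, 4.27 and 7.24 CPM in KO 1 to KO 3, against 10.7 and 10.1 CPM in WT 1 and WT 2. Receptor and ligand were both lower in KO mice, and for both KO 3 was the nearest to the WT libraries. The log2 fold change of Cx3cr1 was -1.05 ± 0.25 SE (edgeR adjusted p = 0.0165), and its call was lost without KO 1 (adjusted p = 0.0561), WT 1 (0.142) or WT 2 (0.08), within a range of 6.52e-09 to 0.142.

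Ccr4, the receptor of Ccl22 and Ccl17 on T cells, was at 1.51, 2.65 and 1.71 CPM in KO 1 to KO 3, against 0.731 and 0.697 CPM in WT 1 and WT 2. It rose (log2 fold change 1.43 ± 0.41 SE, edgeR adjusted p = 0.0347), but not in DESeq2 (adjusted p = 0.0558), limma-voom (0.0508) or without KO 2 (0.0859), WT 1 (0.214) or WT 2 (0.154), within a range of 0.00624 to 0.214. Ccr1, the receptor of Ccl6 and Ccl9, was at 3.35, 5.59 and 4.98 CPM in KO libraries and 2.61 and 2.79 CPM in WT libraries, with no overlap, and missed the threshold (log2 fold change 0.76 ± 0.28 SE, edgeR adjusted p = 0.0841), but was higher without KO 1 (adjusted p = 0.0452) and without a filter on low counts (0.0377), within a range of 0.0377 to 0.351. Cxcr4, the receptor of Cxcl12, was at 1.81, 1.14 and 3.43 CPM in KO libraries and 4.86 and 4.32 CPM in WT libraries and missed the threshold (-1.16 ± 0.38 SE, edgeR adjusted p = 0.0548). It was called lower in 6 of 14 alternatives, among them DESeq2 (adjusted p = 0.0463), limma-voom (0.0224) and without KO 3 (0.00125), within a range of 4.21e-06 to 0.296. Cxcr6 and Ccr10, the receptors of Cxcl16 and Ccl28, had log2 fold changes of -1.25 and -1.21 and missed the threshold (edgeR adjusted p = 0.0508 and 0.0546). Cxcr6 was called lower in 8 of 14 alternatives, among them limma-voom (adjusted p = 0.0363) and without KO 3 (0.00624), within a range of 0.000666 to 0.468. Ccr10 was called lower in 4, among them upper-quartile scaling (adjusted p = 0.0494) and without KO 3 (0.0495), within a range of 0.0383 to 0.339. Ccr3, Ccr8, Ccr9 and Cxcr5, receptors of Ccl28, Ccl8, Ccl25 and Cxcl13, had 0 to 12 counts and were not tested.

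The atypical receptors bind chemokines without G protein signalling. Of 5 tested, 1 was higher, 1 was lower and 3 did not pass, 40% called against 19.7% of all tested genes. Ackr2 passed the filter through KO libraries alone and Ackr4 through WT libraries alone, and neither was called. Ackr1, which binds many CC and CXC ligands on venules and red cells, was at 14.8, 16.8 and 9.03 CPM in KO 1 to KO 3, against 7.21 and 6.69 CPM in WT 1 and WT 2 (log2 fold change 0.97 ± 0.24 SE, edgeR adjusted p = 0.0204). Ccrl2, which presents chemerin, was at 2.60, 2.41 and 2.88 CPM in KO libraries and 5.17 and 5.02 CPM in WT libraries (-0.96 ± 0.23 SE, edgeR adjusted p = 0.0165). Both calls were lost without WT 1 (adjusted p = 0.138 and 0.14), WT 2 (0.121 and 0.0795) or KO 1 (0.0616 and 0.0518), and that of Ackr1 without KO 2 (0.0563), with the lowest values over the alternatives at 2.30e-09 and 0.00184. Ackr3, which takes up Cxcl12, missed the threshold (log2 fold change 0.17 ± 0.16 SE, edgeR adjusted p = 0.482).

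**Figure D4:**
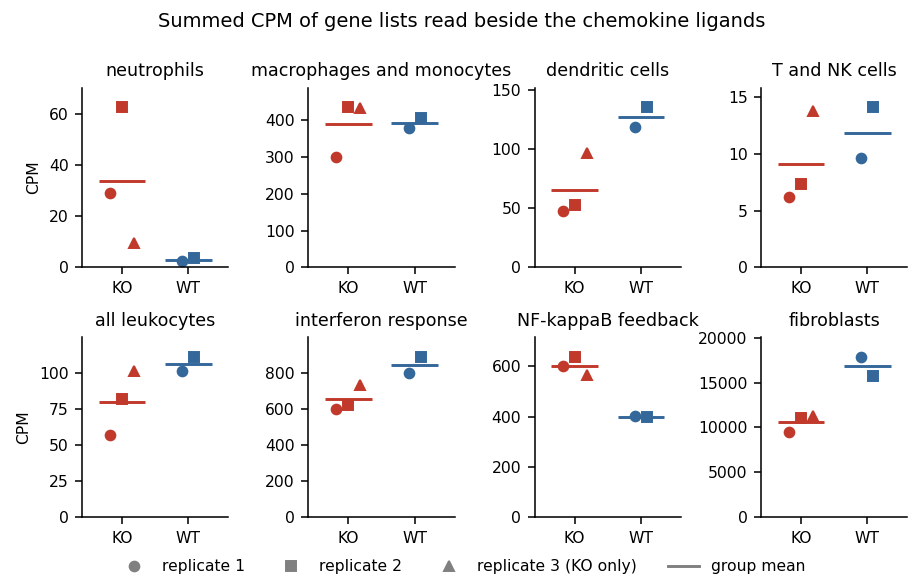
Summed CPM of 8 gene lists in each library, KO at left and WT at right in each panel, with lines at the group means and a linear axis from 0. The neutrophil and NF-kappaB feedback lists sum higher in every KO library than in both WT libraries, interferon response, dendritic cell and fibroblast genes sum lower, and macrophage and T cell lists overlap.

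Genes linked to NF-kappaB, a transcription factor that induces many chemokines, were read as a list. The list, named NF-kappaB feedback here, holds feedback regulators and subunits, and also inflammatory genes such as Icam1, Cebpb and Cebpd. Of 15 tested, 8 were higher, 0 were lower and 7 did not pass, 53.3% called against 19.7% of all tested genes. The sum was 599.9, 638 and 564 CPM in KO 1 to KO 3, against 401 and 397 CPM in WT 1 and WT 2. Cebpd, a transcription factor of acute inflammation, was at 38.7, 39.4 and 42.1 CPM in KO libraries and 9.61 and 11.3 CPM in WT libraries (log2 fold change 1.94, edgeR adjusted p = 1.77e-05). Icam1, a leukocyte adhesion molecule, Nfkbiz, a nuclear inhibitor of NF-kappaB, and Bcl3, its relative, rose by 1.33, 1.11 and 0.95 on the log2 scale. Over the alternatives without 1 library, the higher genes numbered 5 without WT 1, 5 without WT 2 and 5 without KO 2. The feedback genes Tnfaip3 and Nfkbia missed the threshold (log2 fold change -0.02 and 0.33, edgeR adjusted p = 0.971 and 0.0711).

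The cytokines that induce chemokines were low or did not differ past the test. The list held 19 genes with a row of counts, 9 of them tested, of which 11.1% were called against 19.7% of all tested genes. Lta, which encodes lymphotoxin alpha, was the only one called. It passed the filter through KO libraries alone and so could enter the test only by differing. Lta was at 2.60, 2.41 and 1.71 CPM in KO 1 to KO 3, against 0.209 and 0.418 CPM in WT 1 and WT 2 (log2 fold change 2.88 ± 0.46 SE, edgeR adjusted p = 0.00262, lost without WT 1 at 0.0635, range 6.76e-08 to 0.0635). Tslp, an epithelial cytokine, was at 1.51, 1.32 and 4.36 CPM in KO libraries and 5.28 and 4.95 CPM in WT libraries and missed the threshold (edgeR adjusted p = 0.0825). KO 3 was nearest to the WT libraries, and Tslp was lower without KO 3 (log2 fold change -1.85, adjusted p = 0.00023), in limma-voom (0.0217) and without a filter on low counts (0.00237), within a range of 5.10e-08 to 0.336. Il17a and Ifnb1 had no count in any library.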

How the data were processed

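Urothelium was dissected off the muscle layer and libraries were made with the Illumina TruSeq RNA kit, per the labels' protocols. HISAT2 2.1.0, HTSeq 0.11.1, DESeq2 and genome build mm10 are named in the submitters' processing notes. No source used here gives the annotation or strand setting. The deposited values are raw gene counts, 1 table per library, and 5 tally rows for reads outside genes were left out, so that genes held 49.3% to 60.6% of tallied reads.

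Low counts were removed by filterByExpr at a minimum of 10 and a total of 15, and the rest scaled with TMM and tested in edgeR 4.0.16 (R 4.3.3) by quasi-likelihood with genotype as the only term, adjusted over 14779 genes at 0.05. DESeq2 1.42.0 and limma 3.58.1 (voom) were alternatives, with other scalings, filters, a robust fit, a replicate block, each library left out, and ribosomal and nuclear RNA rows left out. The fit was tested on simulated data. With 2 and 3 mice per genotype, p-values set the genotype difference against a spread between libraries that is estimated with information shared over genes.

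Members and lists were chosen with earlier results of these data known. Every detected ligand is named, as are called receptors and the receptors of called ligands. Of other lists up to 4 members with the smallest p are named, plus members at 0. C1qa, C1qb, C1qc, Ly6g, Csf3r, Elavl1, Zmynd15, Tnfaip3 and Nfkbia were named after their values were seen. Positions come from GENCODE vM21 (GRCm38), matched by symbol for all 33 ligands, and promoters from RefSeq (GRCm38.p6). Proteins were not used here, and some list members are not reported here by name.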

Additional observations from a re-analysis of the deposited data

How the results depend on the processing

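Over 14 alternatives for each of the 17 tested ligands, 207 values kept direction and side of the threshold, 19 lost a call, 8 gained one and 4, all of Ccl5, changed sign. The log2 fold change of Ccl5 was 0.0292 in DESeq2 and between -1.25 and 0.39 with 1 library left out. With 1 library left out, ligands called higher numbered 1 to 8 and lower 0 to 6, receptors higher 0 to 2 and lower 1 to 6, and all genes higher 340 to 1743 and lower 375 to 2246. The replicate numbers pair no animals in the labels, and the deviations of same-numbered libraries correlated at -0.0553 and 0.0516. A fit with the replicate number as a block, in which KO 3 has no partner and does not inform the comparison, called 7 ligands higher and 5 lower (Ccl5 and Ccl22 were added), 2 receptors higher and 6 lower, and 2211 genes higher and 2426 lower. Receptors called higher numbered 2 without a filter and 0 in both DESeq2 and limma-voom, and receptors called lower numbered 4 under upper-quartile scaling, 6 without a filter, 4 in limma-voom and 4 in a robust fit. The cause of these moves was not tested. Where a library is left out, the number of samples is smaller as well. The block fit gave the lowest adjusted p printed for Ccl5, Ccl6, Ccl9, Ccl22, Ccl25, Ccl28, Cx3cl1, Cxcl12, Cxcl13 and Cxcl15. It treats same-numbered mice as pairs, which no label states. Detection numbered 11 ligands when 10 counts were asked of all 5 libraries. It numbered 22 with 10 counts in at least 1 library and 23 with 5 counts in at least 2 libraries. The median log2 fold change of all genes was -0.03 under upper-quartile scaling. Ccl2, Ccl7, Ccl22, Ccl28, Cxcl10, Cxcl13 and Cxcl15 had under 10 counts in at least 1 library, where counting error is large.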

Other observations

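Several chemokines and related ligands carry symbols outside the Ccl, Cxcl and Cx3cl pattern. Of 10 such genes in the count tables, 4 were tested, 1 was higher in KO mice, 0 were lower and 3 did not pass. The called share was 25%, against 19.7% of all tested genes. Mif, which encodes a cytokine that binds Cxcr2, Cxcr4 and the receptor Cd74, was at 115, 125 and 117 CPM in KO 1 to KO 3, against 75.4 and 93.1 CPM in WT 1 and WT 2 (log2 fold change 0.50 ± 0.11 SE, edgeR adjusted p = 0.0118). Its call was lost without WT 1 (adjusted p = 0.1246, the highest of 14 alternatives, the lowest being 0.000237). Pf4, the platelet chemokine also called Cxcl4, missed the threshold (log2 fold change 0.10, edgeR adjusted p = 0.802), nor did Ccl27a, known from skin epithelium (-0.30, edgeR adjusted p = 0.49).

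Ppbp, another platelet chemokine, had 17, 8 and 2 counts in KO 1 to KO 3, against 3 and 0 counts in WT 1 and WT 2. Xcl1, a ligand from T and NK cells that draws dendritic cells through Xcr1, had 0, 0 and 1 counts in KO libraries and 3 and 6 in WT libraries. Neither was tested. Ccl21a, Ccl21b, Ccl21c and Ccl27b were at 0 in all 5 libraries.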
